A study of Caenorhabditis elegans with 3 samples.

Results

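Germ granules, called P granules in the nematode Caenorhabditis elegans, are droplets of RNA and protein that sit at the nuclear pores of germ cells and are handed from the oocyte to the germ-cell precursors of the embryo. The genes described here encode 9 of their components, chosen by symbol: the Vasa-like helicase genes glh-1, glh-2 and glh-4, the scaffold genes pgl-1, pgl-2 and pgl-3, the translational repressors cgh-1 and car-1, and deps-1. Of the 9, 8 were measured, among 15112 single genes measured in all. No feature was matched to deps-1 alone, whose product promotes P granule assembly, and this gene was not analysed here.

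RNA of hermaphrodite adults with embryos, from a stage or sample labelled TP10 whose genotype and age the labels do not give, was hybridised on 3 two-colour arrays. Each array carried 1 of 3 numbered preparations in channel 2 and an RNA labelled as a wild-type mixed reference in channel 1, with no statement of what was mixed. The preparations were treated as replicates of 1 group. Since nothing states that they were separate cultures, the spread between them may be partly technical. The value of a gene is the log2 ratio of TP10 over reference, with the median of each array set to 0. No dye is stated and the direction is therefore only likely, taken from the order in which the sample descriptions name the RNAs; an inverted table would turn every sign below.

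P granule assembly rests on a few protein classes. PGL-1 and PGL-3 are self-associating proteins that form the core of the granule and carry RNA-binding RGG repeats, which PGL-2 lacks. The GLH proteins are DEAD-box RNA helicases related to Vasa, a germ-cell helicase of flies, and anchor the granules at the nuclear periphery. CGH-1 is a DEAD-box helicase of the DDX6 family and CAR-1 an Lsm-domain protein of the Scd6 family. These proteins bind each other, join P granules and also form other RNA-protein particles in oocytes and embryos, where CGH-1 protects stored maternal messages.

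All 8 measured germ granule genes were higher in TP10 than in the reference, with a median of 2.22 log2. Each passed an adjusted p of 0.05 in a moderated one-sample fit over all genes and unnamed features (limma with Benjamini-Hochberg adjustment, largest adjusted p = 0.00550, n = 3 arrays), and each had a positive ratio on all 3 arrays. Across the 19300 genes and unnamed features in the fit, 43.9% were called in either direction, 22% as higher and 21.9% as lower, and the median was 0.01 log2. Of the 8 genes, 7 were higher by at least 2-fold, against 8.29% of the whole fit. The same number had a 95% interval that lay wholly above 2-fold. The shares of the whole fit with such an interval, or with a positive ratio on all 3 arrays, were not counted. In whole adults with embryos, more germ cells, more RNA per germ cell and RNA of the embryos cannot be told apart. The genes were chosen with earlier results of these arrays known, so their count describes them and tests nothing about germ granules as a class.

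**Figure D1:**
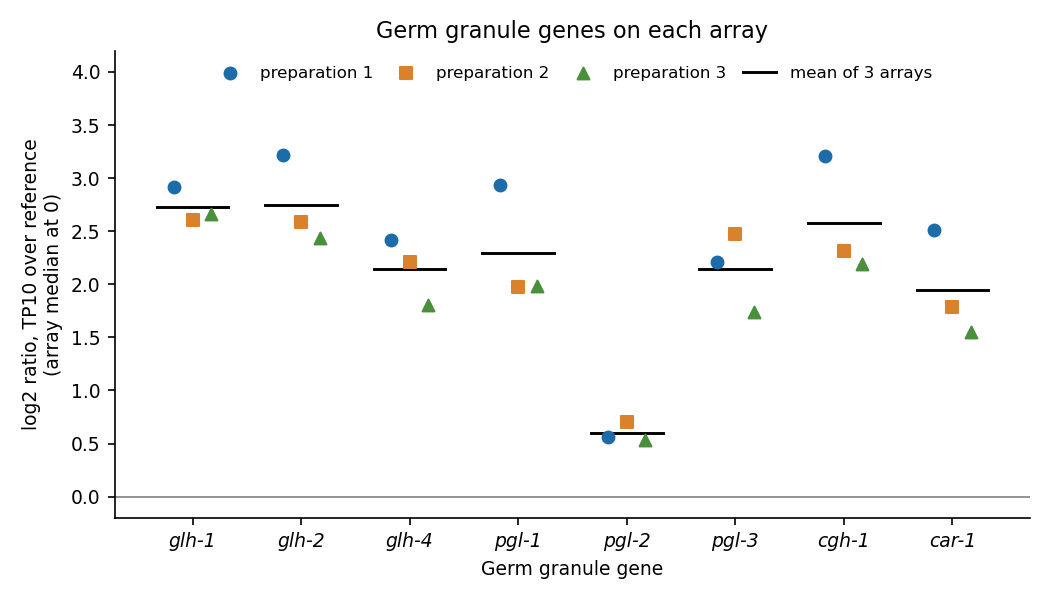
Log2 ratio of TP10 over reference (vertical axis, array median at 0) for the 8 measured germ granule genes (horizontal axis); each symbol is 1 array with its preparation and the bar is the mean of 3 arrays. The pgl-2 values, 0.54 to 0.70, lie below every value of the other genes, the lowest of which is 1.55 for car-1 on the array of preparation 3.

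Among the helicase genes, glh-1 had log2 ratios of 2.91, 2.60 and 2.66 on the arrays of preparations 1, 2 and 3. Its mean of 2.73 ± 0.16 (SD, n = 3) corresponds to a 6.62-fold higher level in TP10 than in the reference (95% interval 2.41 to 3.05 log2, limma adjusted p = 1.53e-06). The 3 values lie close together, and on the array of preparation 3 glh-1 ranked 14 among the 15112 single genes. GLH-1 is a Vasa-like helicase whose loss alone makes animals sterile at raised temperature.

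The paralog glh-2 had log2 ratios of 3.22, 2.58 and 2.43 on the same arrays. Its mean was 2.74 ± 0.42 (SD, n = 3), a 6.70-fold higher level in TP10 (95% interval 2.35 to 3.14 log2, limma adjusted p = 3.60e-06). The array of preparation 1 was the high one for glh-2. By mean ratio glh-2 and glh-1 ranked 14 and 16 of all single genes from the top. The sequences spotted for these related genes were not used here, so hybridisation of glh-1 RNA to the glh-2 feature, or the reverse, was not tested.

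The more distant family member glh-4 was represented by 2 features. Averaged per array, its log2 ratios were 2.42, 2.21 and 1.80, with a mean of 2.14 ± 0.31 (SD, n = 3) and a 4.41-fold higher level in TP10 (95% interval 1.79 to 2.50, limma adjusted p = 8.18e-06). The features did not read alike on every array. One gave 1.42, 2.34 and 1.67 log2 for preparations 1, 2 and 3, and the other gave 3.41, 2.07 and 1.93. They were 1.99 log2 apart on the array of preparation 1 and within 0.27 on the other arrays. Fitted apart, both features passed (limma adjusted p = 5.14e-05 and 5.45e-05), at means of 1.81 ± 0.47 and 2.47 ± 0.82 log2 (SD, n = 3).

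Within the glh family, glh-1 exceeded glh-4 by 0.58 ± 0.24 log2 units of ratio (SD, n = 3) and glh-2 exceeded it by 0.60 ± 0.21, in each case on 3 of 3 arrays. These values average the features of glh-4. Their size, and their sign on the array of preparation 1, rested on which feature was used. Against the feature with the lower mean alone, the differences were 0.91 for glh-1 and 0.93 for glh-2, positive on 3 of 3 arrays. Against the feature with the higher mean they were 0.25 and 0.27, positive on 2 of 3 arrays, and on the array of preparation 1 they were -0.50 and -0.20. The difference between glh-1 and glh-2 ran from -0.30 to 0.23 over the arrays, with a mean of -0.02 ± 0.27, and lay within the spread. For any single difference, an exact two-sided sign-flip permutation test over 3 arrays cannot give a p below 0.25, so that test decides nothing for the 7 pairs compared here. The differences between genes are given as values with their spread.

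Among the scaffold genes, pgl-1 had log2 ratios of 2.93, 1.98 and 1.98 on the arrays of preparations 1, 2 and 3. Its mean of 2.30 ± 0.55 (SD, n = 3) is a 4.92-fold higher level in TP10 than in the reference (95% interval 1.85 to 2.74, limma adjusted p = 1.72e-05). The array of preparation 1 stood above the other arrays, which gave nearly the same value. PGL-1 is the founding member of the family.

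The pgl-3 gene, whose product forms droplets with PGL-1, had log2 ratios of 2.21, 2.48 and 1.74. Its mean was 2.14 ± 0.37 (SD, n = 3), a 4.41-fold higher level in TP10 (95% interval 1.76 to 2.52, limma adjusted p = 1.08e-05). Here the array of preparation 2 was the highest. The pgl-1 ratio minus the pgl-3 ratio was 0.73, -0.50 and 0.24 on the 3 arrays, so the order of these scaffold genes was not the same on each array.

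The remaining scaffold gene, pgl-2, stood apart from its relatives. Its log2 ratios were 0.56, 0.70 and 0.54, with a mean of 0.60 ± 0.09 (SD, n = 3). This is a 1.52-fold higher level in TP10, with a 95% interval of 0.29 to 0.91 log2 and a limma adjusted p of 0.00550. The values agreed closely between arrays, and pgl-2 still passed when any single preparation was left out, though narrowly without preparation 2 (limma adjusted p = 0.0465). It ranked 2579 of 15112 single genes, while the other 7 germ granule genes ranked between 14 and 102.

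Per array, pgl-1 exceeded pgl-2 by 2.38, 1.27 and 1.44 log2 units of ratio, and pgl-3 exceeded it by 1.65, 1.77 and 1.20. The mean differences were 1.70 ± 0.59 and 1.54 ± 0.30 (SD, n = 3), and both were larger than their spread. Each was positive on 3 of 3 arrays. The 95% interval of pgl-2 overlapped that of no other germ granule gene. A ratio to the reference says nothing of how abundant pgl-2 RNA is beside pgl-1 RNA, since levels of different features were not compared.

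**Figure D2:**
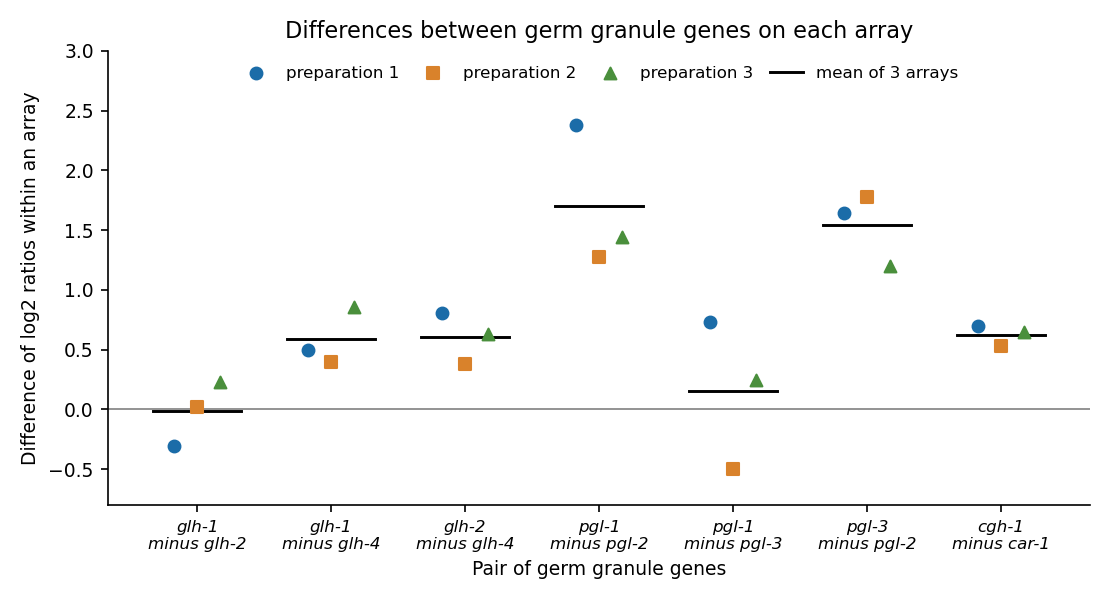
Difference of log2 ratios between the genes of 7 pairs, computed within each array (vertical axis); symbols are the 3 arrays by preparation and bars their means. The differences of pgl-1 and pgl-3 from pgl-2 lie between 1.20 and 2.38 on every array, whereas glh-1 minus glh-2 and pgl-1 minus pgl-3 fall on either side of 0.

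Of the repressor pair, cgh-1 had log2 ratios of 3.21, 2.32 and 2.19 on the arrays of preparations 1, 2 and 3. Its mean of 2.57 ± 0.55 (SD, n = 3) is a 5.95-fold higher level in TP10 than in the reference (95% interval 2.13 to 3.02, limma adjusted p = 1.01e-05). The gene ranked 10 among single genes on the array of preparation 1, 59 on that of preparation 2 and 33 on that of preparation 3.

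Its partner car-1, which is also needed for cytokinesis in the early embryo, had ratios of 2.51, 1.78 and 1.55 as the average of 2 features. The mean was 1.95 ± 0.50 (SD, n = 3), a 3.86-fold higher level in TP10 (95% interval 1.52 to 2.37, limma adjusted p = 3.38e-05). The features of car-1 differed by at most 0.25 log2 on any array, in contrast to those of glh-4. Both cgh-1 and car-1 were highest on the array of preparation 1 and lowest on that of preparation 3.

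The gap between these partners was steadier than either ratio. The cgh-1 ratio exceeded the car-1 ratio by 0.70, 0.53 and 0.65 log2 units on the 3 arrays, a mean of 0.62 ± 0.08 (SD, n = 3), while the SDs of the genes themselves were 0.55 and 0.50. This was the smallest SD among the 7 pairs compared. The gap between cgh-1 and pgl-1, which was not among those pairs and was looked at after the values were seen, was about as steady, at 0.27, 0.34 and 0.21 log2 units (SD 0.06).

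Ordered by mean ratio, the genes ran glh-2, glh-1, cgh-1, pgl-1, glh-4, pgl-3, car-1 and pgl-2. Between neighbours in that order the gaps from glh-2 down to car-1 were 0.00 to 0.28 log2, each smaller than the larger SD of its pair. Within arrays, the higher-placed gene of a step was the higher one on all 3 arrays for cgh-1 over pgl-1 and for car-1 over pgl-2, which makes 2 of 7 steps. The order of the other neighbours changed between arrays. The step from car-1 down to pgl-2 was 1.35 ± 0.52 (SD, n = 3).

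**Figure D3:**
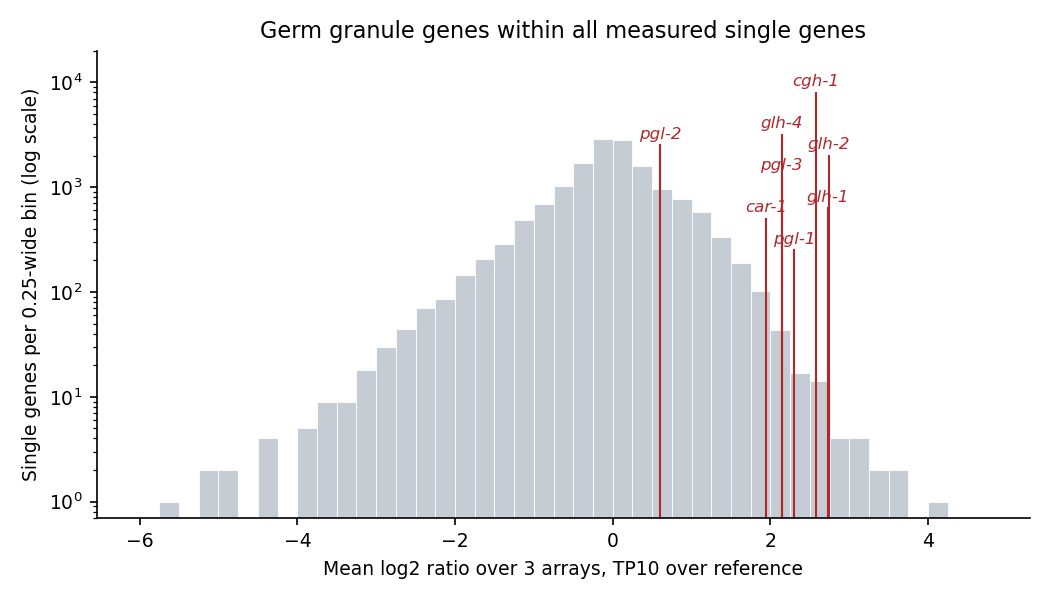
Histogram of the mean log2 ratio over 3 arrays (horizontal axis) for 15112 single genes, counted in bins on a log scale (vertical axis), with a red line at the mean of each of the 8 germ granule genes. From car-1 at 1.95 to glh-2 at 2.74, 7 of the genes lie in the upper tail, and pgl-2 at 0.60 lies on its shoulder.

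The arrays differed in spread. The SD of all ratios was 0.888 log2 for preparation 1, 0.848 for preparation 2 and 0.674 for preparation 3, and the arrays correlated across genes with Pearson's r of 0.850 to 0.898 (genes are not independent replicates). Of the 8 genes, 6 were highest on the array of preparation 1 and 6 were lowest on that of preparation 3. In units of each array's SD, 5 were highest on the array of preparation 1, 0 were lowest on that of preparation 3 and 6 were lowest on that of preparation 2. The median SD of the 8 genes between arrays was 0.40 log2, against 0.23 for all genes and unnamed features. The array dates in the labels differ, so array, preparation and date cannot be told apart.

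The wider P granule machinery was also higher in TP10. Of 12 other components and assembly factors on a list chosen by symbol, 8 were measured, 7 were higher and 0 were lower (limma, also 0 lower at an unadjusted p of 0.05). These counts, and those of the related lists below, stand beside 22% higher and 21.9% lower over all genes and unnamed features. The list median was 1.22 log2. The highest were meg-3 at 1.81 ± 0.59 and meg-1 at 1.43 ± 0.21 (SD, n = 3), which encode disordered proteins that control the P granules of the embryo. The remaining glh gene, glh-3, named here after its value was seen, stood at 1.13, 1.68 and 1.05 log2 on the 3 arrays, below glh-1, glh-2 and the mean of glh-4 on each array. The lowest were ife-1, an eIF4E isoform that binds PGL-1, at 0.69 ± 0.26 (limma adjusted p = 0.00433), and pptr-1, a phosphatase subunit that keeps P granules stable, at 0.27 ± 0.25, which did not pass (limma adjusted p = 0.188).

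Small RNA factors that reside in or beside germ granules covered a wide range. Of 21 measured among 26 listed, 17 were higher, 0 were lower and 4 did not pass (limma, 2 lower at an unadjusted p of 0.05). Their median was 0.97 log2. The Argonaute genes wago-4 and wago-1 were the highest, at 2.71 ± 0.42 and 2.05 ± 0.18 (SD, n = 3), and the mean of wago-4 differed from those of glh-1 and glh-2 by less than its SD. The lowest were alg-4 at -0.36 ± 0.30 and alg-3 at -0.34 ± 0.23, Argonautes of spermatogenesis, neither of which passed (limma adjusted p = 0.0966 and 0.0973). The alg-3 gene was called lower with array weights (limma adjusted p = 0.0436) and without preparation 1 (limma adjusted p = 0.0393).

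Maternal RNA-binding proteins that are found with P granules were higher in all 17 measured cases of 19 listed, at a median of 1.68 log2. The translational repressor gene gld-1 stood at 2.28 ± 0.39 and the CCCH zinc finger gene mex-1 at 2.20 ± 0.27 (SD, n = 3). The lowest of the list were pos-1 at 1.24 ± 0.26, another CCCH zinc finger gene, and gld-2 at 1.13 ± 0.36, which encodes a cytoplasmic poly(A) polymerase, and both passed (limma adjusted p = 1.31e-04 and 3.63e-04).

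The partners of cgh-1 and car-1 in decapping, deadenylation and repression were higher in 19 of 23 measured cases and lower in 0 (limma, also 0 lower at an unadjusted p of 0.05). Of 29 genes listed, the measured ones had a median of 1.00 log2. The decapping activator gene patr-1 was the highest at 1.78 ± 0.32, followed by let-711, the scaffold of the CCR4-NOT deadenylase, at 1.54 ± 0.30 (SD, n = 3). Both means were below those of cgh-1 and car-1. The lowest were lsm-7, a subunit of the Lsm ring, at -0.30 ± 0.13 and ain-1, a partner of the microRNA Argonautes, at -0.11 ± 0.31, neither past the threshold (limma adjusted p = 0.117 and 0.604).

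Other DEAD-box helicase genes, listed together with the related DEAH-box gene ddx-15, were set beside the helicases glh-1, glh-2, glh-4 and cgh-1. Of 12 measured among 18 listed, 11 were higher and 0 were lower (limma, also 0 lower at an unadjusted p of 0.05). These helicases had a median of 1.01 log2. The highest were ddx-15 at 1.91 ± 0.46, whose yeast relative acts in splicing, and ddx-19 at 1.86 ± 0.32, whose yeast relative acts in mRNA export (SD, n = 3). Every measured gene of this list had a lower mean than glh-1, glh-2, glh-4 and cgh-1, with the features of glh-4 averaged. The lower of those features, at 1.81, was below ddx-15 and ddx-19. The paralog glh-3, left out of this comparison, stood at 1.29 ± 0.34, below ddx-15, ddx-19 and inf-1 (1.71 ± 0.22). The list also holds mut-14 and smut-1, which are on the list of small RNA factors of germ granules too. The genes glh-3, inf-1, mut-14 and smut-1 were named after their values were seen. The lowest were ddx-52 at 0.55 ± 0.21 (limma adjusted p = 0.0117) and ddx-17 at 0.06 ± 0.49, which did not pass (limma adjusted p = 0.833).

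**Figure D4:**
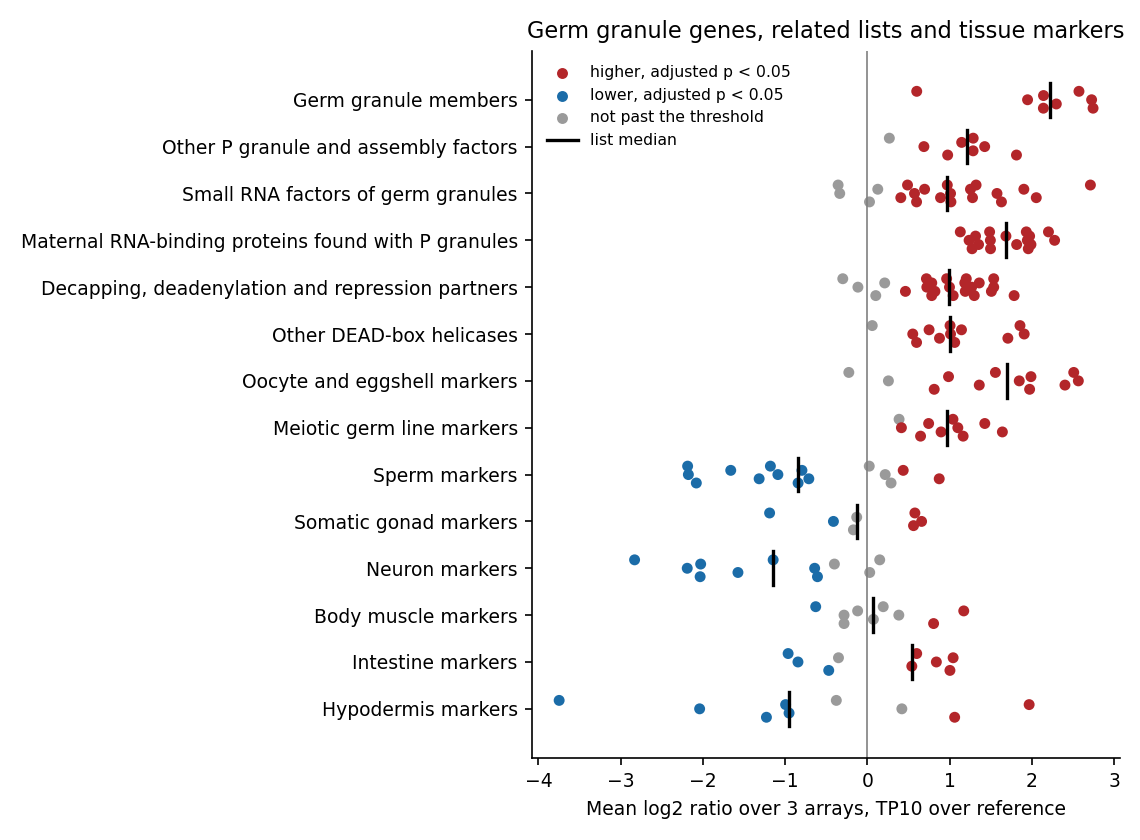
Mean log2 ratio over 3 arrays (horizontal axis) of each measured gene in the germ granule set, 5 related lists and 8 lists of tissue markers (rows); colour gives the call at an adjusted p of 0.05 and the black bar the list median. The germ granule median of 2.22 lies above the other list medians, of which the highest is 1.70 for oocyte and eggshell markers, and no test between lists was made.

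Markers of oocytes and of meiotic germ cells were mostly higher, as were the germ granule genes. Over all genes and unnamed features, 22% were higher and 21.9% lower. Oocyte and eggshell markers were higher in 10 of 12 cases, with a median of 1.70 log2 and array medians of 1.45 to 1.82. They ran from egg-1, an oocyte surface gene needed for fertilization, at -0.23 ± 0.29 (limma adjusted p = 0.281) to the eggshell gene cbd-1 at 2.57 ± 0.58 (SD, n = 3). Markers of meiotic germ cells were higher in 9 of 10 measured cases of 13 listed, with a median of 0.97 and array medians of 0.65 to 1.12. Their range ran from syp-3, a synaptonemal complex gene, at 0.39 ± 0.26 (limma adjusted p = 0.0651) to the meiotic cohesin gene rec-8 at 1.64 ± 0.42. The oocyte markers lin-41 and puf-5 are on the list of maternal RNA-binding proteins too, and were named after their values were seen. The part of oocyte and germ-cell content in the germ granule ratios was not tested.

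Sperm markers, from the other product of the hermaphrodite germ line, comprised 16 listed and 15 measured genes. Of these, 10 were lower and 2 higher, beside 21.9% lower and 22% higher over all genes and unnamed features. The median of the sperm markers was -0.84 log2, with array medians of -1.08 to -0.60. They ran from the major sperm protein gene msp-59 at -2.19 ± 0.42, a member of a family of near-identical copies, to the sperm channel gene spe-41 at 0.87 ± 0.26 (SD, n = 3). Most of the lower calls were msp genes, and hybridisation between the copies was not tested, so these calls may not be independent. In that family msp-38 alone did not pass, at 0.22 ± 0.58 (SD, n = 3, limma adjusted p = 0.432). Outside the msp family the markers split. The genes gsp-3, gsp-4 and spe-11 were lower, spe-41 and spe-4 were higher, and spe-9 and fer-1 did not pass. This split, and msp-38, were looked at after the values were seen.

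Somatic tissue markers differed between lists, beside 22% higher and 21.9% lower over all genes and unnamed features. Of 11 measured neuron markers, 8 were lower and 0 higher (limma, also 0 higher at an unadjusted p of 0.05), from the dense-core vesicle gene ida-1 at -2.83 ± 0.25 to the synaptobrevin gene snb-1 at 0.15 ± 0.46, with a median of -1.15 log2. Of 9 hypodermis markers, 5 were lower and 2 higher, from the collagen gene rol-6 at -3.75 ± 0.45 to the adult collagen gene col-19 at 1.97 ± 0.14 (SD, n = 3), with a median of -0.95. Of 7 somatic gonad markers, 3 were higher and 2 lower, from the gonadal sheath homeobox gene ceh-18 at -1.19 ± 0.13 to the filamin gene fln-1 at 0.66 ± 0.30, with a median of -0.13. Without preparation 1 that count was 2 higher and 1 lower. With every preparation used it was 2 higher and 2 lower under features kept apart, values on at least 2 arrays or array weights. Of 9 measured body muscle markers, 2 were higher and 1 lower, from the troponin I gene tni-1 at -0.63 ± 0.31 to the troponin T gene tnt-2 at 1.17 ± 0.56, with a median of 0.07, and the shares called (22.2% higher and 11.1% lower) were near or below those over all genes and unnamed features. Of 9 intestine markers, 5 were higher and 3 lower, from the intermediate filament gene ifb-2 at -0.96 ± 0.10 to the proton pump gene vha-6 at 1.04 ± 0.48, with a median of 0.54. Without preparation 2 that count was 3 higher and 2 lower.

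The germ granule genes lie on several chromosomes by the RefSeq annotation of assembly WBcel235. The genes glh-1, glh-2, glh-4, car-1 and deps-1 are on chromosome I, pgl-2 and cgh-1 on III, pgl-1 on IV and pgl-3 on V, and 0 of the 9 are on X. Of the 16 protein-coding genes that directly precede or follow the 8 measured genes along the chromosome, 12 were measured. Of these 12, 6 were called higher and 2 lower, beside 22% higher and 21.9% lower over all genes and unnamed features. The median of the 12 was 0.38 log2. The neighbours were chosen after the values of the germ granule genes were known. Their range ran from lin-59, beside glh-4, at -0.51 ± 0.23 to hil-4, a histone H1-like gene beside pgl-3, at 2.11 ± 0.10 (SD, n = 3). The meiotic chromosome axis gene him-3 lies beside pgl-1 and stood at 1.10 ± 0.44.

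Likeness to the mean profile of the 8 germ granule genes was measured by Euclidean distance over the 3 arrays. Genes known only by a sequence name were left out of this search. Of the rest, the nearest outside the germ granule genes were egc-2, cyb-3, mrp-4, rsa-2 and npp-10. The nearest, egc-2, had ratios of 2.54, 2.04 and 1.86 log2 and a distance of 0.06. The B-type cyclin gene cyb-3 lay at a distance of 0.16, the ABC transporter gene mrp-4 at 0.18, the spindle assembly gene rsa-2 at 0.26 and the nucleoporin gene npp-10 at 0.26. All 5 were higher in TP10, at means of 2.05 to 2.24 log2. With 3 arrays of a single group, such likeness is mostly a likeness of size.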

How the data were processed

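The authors' deposited table gives a log2 ratio of the channels for 20000 features on each of 3 arrays. The scale was read from the values: 2 to the power of a value was a whole number of thousandths, within 0.01 thousandths, for at least 99.98% of values. Background correction, spot filters and normalization are not given in the sources used here. The deposited medians were -0.00868, 0.0172 and 0.0101. Spot intensities were not used, so features near background or saturated are unknown, and with only 3 arrays the precision is limited.

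The platform annotation gave 15655 features 1 gene, and 15569 of these matched RefSeq (WBcel235). Features with a value on all 3 arrays (19748) were averaged per gene and each array was centred on its median, giving 19300 genes and unnamed features. An intercept-only model in limma 3.58.1 (R 4.3.3) compared each mean with 0 (two-sided, Benjamini-Hochberg over all 19300, threshold 0.05); the script was tested on simulated data. The reference has no replicate of its own, so its spread and any dye bias are outside the error. The p-values set each mean against the spread between arrays, each with its own preparation, after limma moderated that spread over all 19300.

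The members and lists were chosen with earlier results of these data known. The text names all members, the 2 highest and 2 lowest of each related list, and the highest and lowest of each marker list. It also names the 5 nearest genes that have more than a sequence name, and others marked as chosen later. Alternatives covered centring, scaling, quantile normalization, features kept apart, values on at least 2 arrays, robust eBayes, array weights, an unmoderated test and leaving out each preparation.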

Additional observations from a re-analysis of the deposited data

How the results depend on the processing

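All 8 measured germ granule genes stayed higher, with an adjusted p under 0.05, under every alternative except the unmoderated one-sample test, which has 2 residual degrees of freedom. There 0 of the 8 passed (adjusted p 0.0854 to 0.105), although all 8 had an unadjusted p under 0.05, from 0.00121 to 0.0214. That test left 1 of 19300 genes and features, 0 higher and 1 lower, against 8476 with limma, and 6829 had an unadjusted p under 0.05. It called 0 genes in each of the 13 other lists, where 104 of 159 distinct genes had an unadjusted p under 0.05. Under the other settings that used every array, 8425 to 9193 were called, and without 1 preparation 6790 to 7811. The mean of pgl-2 was 0.55 to 0.63 log2 without 1 preparation and that of pgl-1 1.98 to 2.46.

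The difference of glh-1 and glh-2 reversed to 0.0265 log2 after scaling to one median absolute deviation and ran from -0.14 to 0.13 without 1 preparation. That of pgl-1 and pgl-3 ran from -0.13 to 0.49. The other 5 pairs kept their sign in every setting run. Without 1 preparation, somatic gonad markers called numbered 3 to 4 (5 in the main fit) and intestine markers 5 to 7 (8 in the main fit). Somatic gonad markers called also numbered 4 under features kept apart, values on at least 2 arrays and array weights. Leaving out a preparation leaves 2 arrays; the cause of the other changes was not tested. Small RNA factors called higher numbered 14 to 15 without 1 preparation (17 with all arrays), with alg-3 lower without preparation 1. With array weights 16 were higher and alg-3 was lower. No fit with replicate numbers as a block was possible, because there is 1 group of arrays and no group to pair it with.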
